A study of Mus musculus with 12 samples.

Results

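The genes described are 44 genes of the cell cycle, listed by symbol: cyclins and their kinases, the factors that load and fire replication origins, and the kinases, motors and checkpoint proteins of mitosis. A gene was analysed where at least 3 probesets of the exon array carried its symbol alone, which held for 42 of the 44, through 650 probesets. They divide into 21 genes of the G1 phase and the entry into and passage through S phase (G1/S) and 21 genes of the G2 phase and mitosis (G2/M), and stand among 15025 genes measured the same way. Ccnb1 (cyclin B1) and Rrm2 (a ribonucleotide reductase subunit) had 0 such probesets and were not analysed here, while the gene nearest to the minimum, Gins2, had 4. The samples are 12 arrays of primary tumours, 3 for each of the mouse mammary carcinoma lines 4T1, 4T07, 168FARN and 67NR. The cells had been cultured and then injected without any other treatment into the mammary fat pad of 3-month-old BALB/c females, per the labels, so each tumour also holds cells of its host. As background, the lines come from 1 mammary tumour and differ in how far their cells spread: 4T1 cells form metastases in the lung and other organs, 4T07 cells are found in the lung but leave no nodules to see there, 168FARN cells get as far as the lymph nodes, and 67NR tumours stay in the fat pad. Each line stands for 1 such behaviour, so line and behaviour cannot be told apart. Nothing in the labels says that the 3 arrays of a line hold 3 separate tumours or came from 3 mice. The p-values thus rest on the spread between these samples, and this can be a technical one.

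In G1, D-type cyclins with CDK4 or CDK6 and then cyclin E with CDK2 phosphorylate the retinoblastoma protein and its relatives, which frees E2F factors to transcribe the genes of DNA replication. In G2, the MuvB proteins, which are also part of the repressing DREAM complex, act with B-MYB and FOXM1. The genes of mitosis are then transcribed from promoters that carry a CCAAT box and a cell cycle homology element. Bulk levels of both sets follow the share of cycling cells in a tissue, and are commonly read as proliferation scores in breast tumours.

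Levels below are log2 signals, the median over a gene's probesets, with the mean and SD of the 3 arrays of a line (n = 3). A difference of 1 on this scale is a 2-fold change, and levels of different genes are not compared. Changes are limma contrasts with their standard error (SE), and a gene was called where its p, adjusted by Benjamini-Hochberg over all 15025 genes, was under 0.05. Line means of the 42 genes lay between 6.43 (Ccne2) and 13.20 (Ccnd1), above 5.08, the 95th percentile of 335 olfactory receptor genes, which serve as a scale of background. Some arrays stood apart from others of their line. Array 1 of the 4T07 tumours was the lowest of its line for 59.6% of all genes, and 12 skeletal muscle markers averaged 5.46, 7.71 and 8.68 on arrays 1, 2 and 3 of the 168FARN tumours, against 5.82 to 5.97 on 4T1, 5.54 to 6.21 on 4T07 and 5.34 to 5.84 on 67NR arrays. Epithelial markers, which define a carcinoma, averaged 9.04 to 9.57 on 4T1, 8.52 to 9.78 on 4T07, 7.28 to 7.36 on 168FARN and 5.81 to 6.68 on 67NR arrays, the last of these the nearest to background.

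Cell cycle genes of both phases were highest in 67NR tumours. The mean level was highest in 67NR for 38 of 42 genes, 19 of 21 in each phase, and the exceptions were Ccnd2, Ccne1 and Cdc25c, highest in 168FARN, and Bub1, highest in 4T07. Of 21 G2/M genes, 17 were lowest in 4T1, 2 in 4T07 and 2 in 168FARN. Of 21 G1/S genes, 11 were lowest in 4T07, 4 in 4T1 and 6 in 168FARN. Array 1 of 4T07 was the lowest of its line for 17 of 21 G1/S genes (59.6% of all genes), and ranks without it were not counted. Some ranks are close, as for Cdk4 at 12.254 in 4T07 and 12.257 in 4T1. Whether the lowest line differs by phase was not tested. The moderated F-test over the 4 lines called 28 of 42 (66.7%), 13 of 21 G1/S and 15 of 21 G2/M genes, where it called 42.0% of all genes. Without array 2 of the 67NR tumours it called 16 of 42. The share of all genes was not counted in that setting, and the 42.0% is for all 12 arrays. In bulk tumours, fewer cycling cells and less RNA of these genes per cell cannot be told apart.

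Averaged over the 21 G2/M genes, the level was 9.01, 8.86 and 8.92 on the 4T1 arrays, 8.98, 9.19 and 9.33 on the 4T07 arrays, 8.92, 9.27 and 9.63 on the 168FARN arrays, and 9.56, 9.77 and 9.66 on the 67NR arrays. Every 4T1 and 4T07 array thus lay under every 67NR array, and the 168FARN arrays spanned almost the whole range. The 21 G1/S genes averaged 9.44, 9.47 and 9.40 on the 4T1 arrays, 9.17, 9.45 and 9.5 on the 4T07 arrays, 9.51, 9.63 and 9.80 on the 168FARN arrays, and 9.85, 9.96 and 9.87 on the 67NR arrays. In this phase no array of another line reached a 67NR array.

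**Figure D1:**
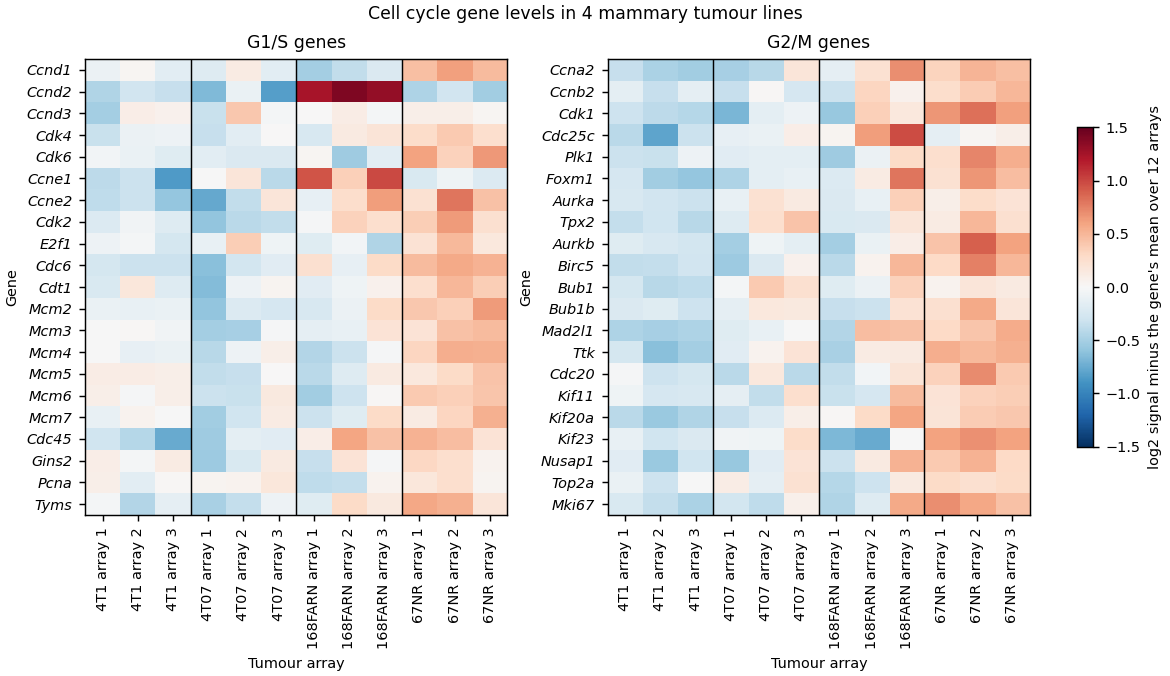
Level of each gene (rows) on each of the 12 arrays (columns, 3 per line), as log2 signal minus the gene's mean over the arrays. The left panel holds the 21 G1/S genes and the right panel the 21 G2/M genes: most rows are highest in 67NR, Ccnd2 and Ccne1 are highest in 168FARN, and array 3 of 168FARN is higher than array 1 for most G2/M genes.

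The promoters of the 2 phases differ in their letters, and 2 promoters of each phase are printed for genes whose change against 67NR was called in at least 1 line. These 4 were chosen for holding the letters of their phase, so they do not show how often such letters occur. Among F-test-called genes with such a window, they have the largest ranges of line means. Ccne1 and Cdc45 have larger ranges than Cdc6 and Cdk2, but their windows hold no E2F-type letters. The printed sequences are the RefSeq windows of GRCm38.p6 from 250 bases before to 50 bases after the gene's start, 5′ to 3′ along the gene's own strand. Cdc6 lies at chr11:98907901-98908200 on the plus strand, Cdk2 at chr10:128705002-128705301 on the minus strand, Kif23 at chr9:61946750-61947049 on the minus strand and Cdk1 at chr10:69352863-69353162 on the minus strand. Capitals mark E2F-type letters in the G1/S promoters, and homology elements and CCAAT boxes, on either strand, in the G2/M promoters.
Cdc6: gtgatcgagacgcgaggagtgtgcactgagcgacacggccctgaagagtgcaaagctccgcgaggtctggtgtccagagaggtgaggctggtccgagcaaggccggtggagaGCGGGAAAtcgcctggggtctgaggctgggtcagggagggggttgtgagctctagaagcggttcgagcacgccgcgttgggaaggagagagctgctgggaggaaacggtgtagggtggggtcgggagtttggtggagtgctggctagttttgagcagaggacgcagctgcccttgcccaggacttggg
Cdk2: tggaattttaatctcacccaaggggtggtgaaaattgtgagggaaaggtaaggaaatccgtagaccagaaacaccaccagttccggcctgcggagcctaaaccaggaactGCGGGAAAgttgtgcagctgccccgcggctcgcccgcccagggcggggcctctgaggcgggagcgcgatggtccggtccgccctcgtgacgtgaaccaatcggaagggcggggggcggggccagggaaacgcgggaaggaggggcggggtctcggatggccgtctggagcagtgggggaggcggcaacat
Kif23: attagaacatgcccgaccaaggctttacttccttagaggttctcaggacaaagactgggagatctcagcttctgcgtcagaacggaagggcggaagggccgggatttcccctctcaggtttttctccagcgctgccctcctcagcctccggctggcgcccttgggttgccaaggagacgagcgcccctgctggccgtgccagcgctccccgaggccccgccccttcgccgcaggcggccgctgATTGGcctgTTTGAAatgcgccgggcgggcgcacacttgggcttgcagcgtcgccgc
Cdk1: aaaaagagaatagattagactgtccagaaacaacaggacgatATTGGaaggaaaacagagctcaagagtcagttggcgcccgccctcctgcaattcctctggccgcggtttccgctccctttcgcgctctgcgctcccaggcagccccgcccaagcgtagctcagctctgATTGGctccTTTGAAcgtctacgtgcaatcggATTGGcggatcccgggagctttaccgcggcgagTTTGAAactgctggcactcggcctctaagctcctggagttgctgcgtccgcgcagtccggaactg

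In the Cdc6 window the opposite strand of GCGGGAAA reads TTTCCCGC, 138 to 131 bases before the start, and Cdk2 holds the same letters 140 to 133 bases before it. In Kif23 a CCAAT box on the opposite strand, 7 to 3 bases before the start, stands beside TTTGAA 2 to 7 bases after it, and Cdk1 holds TTTGAA at 2 places and CCAAT at 3. Over both strands, the E2F-type letters TTTCGCGC, TTTGGCGC, TTCCCGCC or TTTCCCGC, of which the last 2 can overlap, were found in 7 of 16 G1/S genes with a window (43.8%), in 1 of 15 G2/M genes (6.67%, Cdk1) and in 4.0% of the 27025 genes with one. The homology element, as TTTGAA or TTTAAA, was found in 4 of 16 G1/S genes (25%), 12 of 15 G2/M genes (80.0%) and 30.6% of all genes. A CCAAT box was found in 9 of 16 (56.2%), 12 of 15 (80.0%) and 41.1%, and both a homology element and a CCAAT box in 3 of 16 (18.8%), 11 of 15 (73.3%) and 12.2%. A match describes the letters of the window and is not a measured site.

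**Figure D2:**
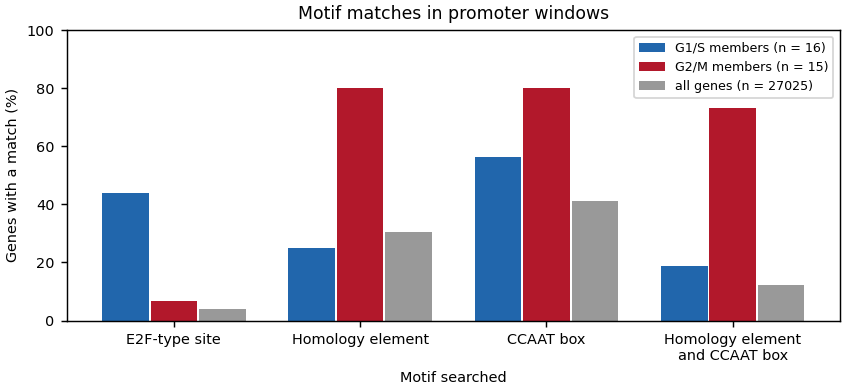
Share of genes (vertical axis, percent) whose 300-base promoter window holds each motif (horizontal axis), for G1/S members, G2/M members and all genes with a window. E2F-type letters are most frequent in the G1/S genes (43.8%) and the pair of homology element and CCAAT box in the G2/M genes (73.3%).

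D-type cyclins, which carry growth signals to CDK4 and CDK6, moved in different directions. Ccnd1 (cyclin D1) measured 12.60, 12.71 and 12.53 in 4T1 tumours and 12.49, 12.80 and 12.52 in 4T07 tumours. Ccnd1 stood at 12.17, 12.31 and 12.47 in 168FARN tumours and 13.13, 13.30 and 13.16 in 67NR tumours. The 67NR arrays lay above all others, and the change against 67NR was -0.58 ± 0.14 (SE, adjusted p = 0.00928) in 4T1, -0.59 ± 0.14 (SE, adjusted p = 0.00838) in 4T07 and -0.88 ± 0.14 (SE, adjusted p = 0.00061) in 168FARN tumours by limma, with all 6 probesets negative in each comparison. Ccnd2 (cyclin D2) measured 10.22, 10.38 and 10.32 in 4T1 tumours and 10.01, 10.57 and 9.84 in 4T07 tumours. Ccnd2 stood at 11.90, 12.07 and 11.99 in 168FARN tumours and 10.20, 10.38 and 10.15 in 67NR tumours. Cyclin D2 was thus high in 168FARN tumours, at 11.90 or more on each array, and at 10.57 or less on every other array. The limma change was 1.74 ± 0.18 (SE, adjusted p = 1.46e-05) for 168FARN against 67NR, a 3.35-fold difference, with 7 of 7 probesets positive. It was -1.84 ± 0.18 (SE, adjusted p = 6.88e-06) for 4T07 against 168FARN and -1.68 ± 0.18 (SE, adjusted p = 1.27e-05) for 4T1 against 168FARN, while 4T1 and 4T07 did not differ from 67NR beyond their spread, at 0.06 (adjusted p = 0.854) and -0.10 (adjusted p = 0.75). Ccnd3 (cyclin D3) measured 8.23, 8.83 and 8.80 in 4T1 tumours and 8.41, 9.14 and 8.71 in 4T07 tumours. Ccnd3 stood at 8.75, 8.85 and 8.71 in 168FARN tumours and 8.83, 8.83 and 8.76 in 67NR tumours, so the lines overlapped, with an F-test adjusted p of 0.848, and its range of line means, 0.19, was the smallest of the 42 genes.

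The kinases of the D-type cyclins were lower in 4T1 and 4T07 than in 67NR. Cdk6 averaged 10.47 ± 0.07 in 4T1 tumours, 10.38 ± 0.03 in 4T07 tumours, 10.36 ± 0.29 in 168FARN tumours and 11.11 ± 0.16 in 67NR tumours. Its limma change against 67NR was -0.64 ± 0.16 (SE, adjusted p = 0.0106) in 4T1, -0.73 ± 0.16 (SE, adjusted p = 0.00443) in 4T07 and -0.75 ± 0.16 (SE, adjusted p = 0.00385) in 168FARN. Cdk4 averaged 12.26 ± 0.14 in 4T1 tumours, 12.25 ± 0.18 in 4T07 tumours, 12.45 ± 0.24 in 168FARN tumours and 12.73 ± 0.08 in 67NR tumours. It was called lower in 4T1 at -0.47 (adjusted p = 0.0488) and in 4T07 at -0.47 (adjusted p = 0.0456) by limma, not in 168FARN at -0.27 (adjusted p = 0.241). The Cdk4 calls are thin: they were lost in 9 (4T1) and 10 (4T07) of 20 other settings, among them without any 1 array of 67NR, at adjusted p-values up to 0.182 and 0.144. The Ccnd1, Ccnd2 and Cdk6 calls held in all 20, except Cdk6 in 168FARN, which had an adjusted p of 0.128 where array 1 was the line's only array. That setting has 1 array of 168FARN, so its test takes the spread from the remaining lines.

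**Figure D3:**
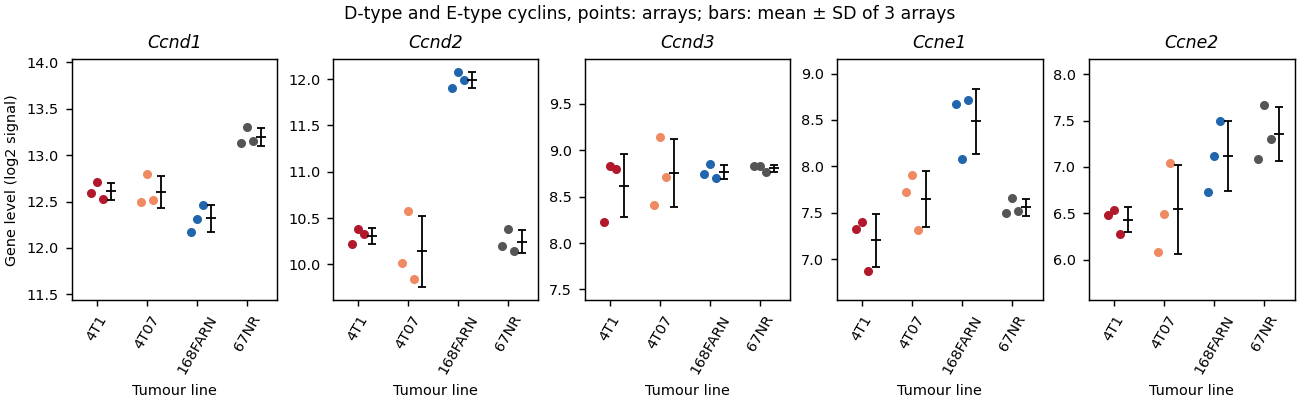
Level (vertical axis, log2 signal) of the D-type and E-type cyclins on each array, by line (horizontal axis). Points are arrays and bars are the mean ± SD of 3 arrays; each panel spans 2.6 log2 units. Ccnd2 and Ccne1 are highest in 168FARN, Ccnd1 is highest in 67NR, and Ccnd3 overlaps between lines.

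At the entry into S phase, the E-type cyclins, partners of CDK2, also parted. Ccne1 (cyclin E1) measured 7.33, 7.40 and 6.88 in 4T1 tumours and 7.72, 7.91 and 7.32 in 4T07 tumours. Ccne1 stood at 8.67, 8.08 and 8.71 in 168FARN tumours and 7.49, 7.66 and 7.52 in 67NR tumours. Each 168FARN array lay above each array of the other lines, and by limma cyclin E1 was higher in 168FARN than in 67NR by 0.93 ± 0.21 (SE, adjusted p = 0.00574), a 1.90-fold difference with 15 of 15 probesets positive. It was lower in 4T1 than in 168FARN by -1.28 ± 0.21 (SE, adjusted p = 0.000469) and in 4T07 than in 168FARN by -0.84 ± 0.21 (SE, adjusted p = 0.00922). These 3 calls held in all 20 other settings. Ccne2 (cyclin E2) measured 6.48, 6.54 and 6.28 in 4T1 tumours and 6.09, 6.49 and 7.04 in 4T07 tumours. Ccne2 stood at 6.73, 7.12 and 7.49 in 168FARN tumours and 7.09, 7.66 and 7.30 in 67NR tumours, with 67NR and 168FARN overlapping and the 4T1 arrays below both. By limma its change against 67NR was -0.92 ± 0.25 (SE, adjusted p = 0.0174) in 4T1, -0.81 ± 0.25 (SE, adjusted p = 0.0319) in 4T07 and -0.24 ± 0.25 (SE, adjusted p = 0.554) in 168FARN. The 4T1 call was lost without array 2 of 67NR (adjusted p = 0.0804) and without array 3 of 4T1 (0.0671), and the 4T07 call in 5 of 20 settings, those without array 2 or 3 of 67NR or array 1 or 2 of 4T07 among them, at adjusted p-values up to 0.131.

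Cdk2, the kinase that cyclin E activates, averaged 9.63 ± 0.08 in 4T1 tumours, 9.33 ± 0.12 in 4T07 tumours, 9.98 ± 0.19 in 168FARN tumours and 10.20 ± 0.21 in 67NR tumours. It was lowest in 4T07, where the limma change was -0.87 ± 0.15 (SE, adjusted p = 0.000972) against 67NR and -0.65 ± 0.15 (SE, adjusted p = 0.00621) against 168FARN, the second lost with array 1 as the only 168FARN array (adjusted p = 0.211). In 4T1 it was -0.57 ± 0.15 (SE, adjusted p = 0.0166) against 67NR, a call lost without array 2 of 67NR (adjusted p = 0.0877) and without array 1 or 3 of 4T1 (0.0627 and 0.0574). E2f1, the activating E2F factor, was called lower in 168FARN at -0.51 (adjusted p = 0.0444) by limma, but lost the call in 10 of 20 settings, among them those without any 1 array of 67NR or 4T1 and without array 1 or 3 of 168FARN (adjusted p up to 0.245, with array 1 as the only 168FARN array). E2f1 stood at -0.41 (adjusted p = 0.109) in 4T1 and -0.23 (adjusted p = 0.403) in 4T07, neither called.

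Of 11 genes of origin licensing and replication, 4 were lower than in 67NR in 4T1, 8 in 4T07 and 2 in 168FARN, where 13.0%, 12.7% and 11.2% of all genes were lower in the same lines, and 0 were higher. The 2 of 11 in 168FARN are near the share of all genes. The loading factor Cdc6 measured 8.18, 8.12 and 8.12 in 4T1 tumours and 7.82, 8.17 and 8.28 in 4T07 tumours. Cdc6 stood at 8.69, 8.32 and 8.73 in 168FARN tumours and 8.92, 9.01 and 8.97 in 67NR tumours. All 67NR arrays were above all others, and by limma Cdc6 was lower by -0.82 ± 0.16 (SE, adjusted p = 0.00189) in 4T1 and -0.88 ± 0.16 (SE, adjusted p = 0.00114) in 4T07, and stood at -0.38 ± 0.16 (SE, adjusted p = 0.0954) in 168FARN, which was not called. Cdc45, a part of the replicative helicase, measured 8.40, 8.29 and 7.95 in 4T1 tumours and 8.18, 8.57 and 8.53 in 4T07 tumours. Cdc45 stood at 8.81, 9.30 and 9.15 in 168FARN tumours and 9.23, 9.17 and 8.92 in 67NR tumours. In Cdc45 the 168FARN and 67NR arrays overlapped, at -0.02 (adjusted p = 0.961), while the gene was lower in 4T1 than in 67NR by -0.89 ± 0.18 (SE, adjusted p = 0.00291) and than in 168FARN by -0.87 ± 0.18 (SE, adjusted p = 0.00248), by limma. In 4T07 it was lower than in 67NR by -0.68 ± 0.18 (SE, adjusted p = 0.0153), a call lost without array 1 of 4T07 or array 1 or 2 of 67NR (adjusted p up to 0.0616).

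The 6 subunits of the MCM2-7 helicase, which Cdc6 and Cdt1 load onto origins, gave 5 calls, all lower, in 4T07 against 67NR, 2 in 4T1 and 2 in 168FARN, beside the same shares of all genes. Mcm2 averaged 9.72 ± 0.01 in 4T1 tumours, 9.48 ± 0.21 in 4T07 tumours, 9.82 ± 0.27 in 168FARN tumours and 10.30 ± 0.15 in 67NR tumours. It was lower than in 67NR by -0.82 ± 0.17 (SE, adjusted p = 0.00285) in 4T07 and -0.57 ± 0.17 (SE, adjusted p = 0.025) in 4T1 by limma. Mcm4 averaged 9.24 ± 0.06 in 4T1 tumours, 9.18 ± 0.26 in 4T07 tumours, 9.06 ± 0.22 in 168FARN tumours and 9.79 ± 0.12 in 67NR tumours. Its limma change against 67NR was -0.73 ± 0.16 (SE, adjusted p = 0.00565) in 168FARN, -0.60 ± 0.16 (SE, adjusted p = 0.0168) in 4T07 and -0.55 ± 0.16 (SE, adjusted p = 0.0297) in 4T1. Mcm3 and Mcm5 were called in 4T07 alone among the 3 lines, at -0.72 (adjusted p = 0.00634) and -0.52 (adjusted p = 0.0342), and Mcm6 in 4T07 and 168FARN, at -0.56 (adjusted p = 0.0299) and -0.66 (adjusted p = 0.0122). None of the 6 was called between 4T1 and 4T07, nor between either and 168FARN. Mcm7 was called in 0 lines, its change being -0.56 (adjusted p = 0.0589) in 4T07. Calls that held in all 20 settings were those of Mcm2 and Mcm3 in 4T07 and Mcm4 in 168FARN. The 4T1 calls of Mcm2 and Mcm4 were each lost without any 1 of the 4T1 arrays and without array 3 of 67NR. The Mcm2 call was also lost without array 1 and the Mcm4 call without array 2 of 67NR, with adjusted p-values up to 0.0953 for Mcm2 and 0.0988 for Mcm4. The 4T07 calls of Mcm4, Mcm5 and Mcm6 were lost in 3, 5 and 6 settings, each without array 1 of 4T07 and without array 2 or 3 of 67NR (up to 0.117), and that of Mcm6 in 168FARN without array 1 of 168FARN (0.052). Tyms, which makes thymidylate for DNA, was lower by -0.74 ± 0.18 (SE, adjusted p = 0.00976) in 4T07 and -0.63 ± 0.18 (SE, adjusted p = 0.0237) in 4T1 by limma, the second lost without array 1 or 2 of 67NR or array 2 or 3 of 4T1 (up to 0.104). Cdt1 was called in 4T07 at -0.60 (adjusted p = 0.0348), lost in 5 settings, among them without array 1 of 4T07 or any 1 array of 67NR, while Pcna, the sliding clamp, and Gins2, another helicase subunit, were called in 0 of the comparisons.

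Among the genes of mitotic entry, all 6 measured were called by the F-test, which called 42.0% of all genes. Cdk1, the kinase that drives mitosis, measured 9.52, 9.44 and 9.41 in 4T1 tumours and 9.15, 9.69 and 9.77 in 4T07 tumours. Cdk1 stood at 9.27, 10.20 and 10.00 in 168FARN tumours and 10.50, 10.66 and 10.45 in 67NR tumours. Every 67NR array lay above every other array, and the limma change was -1.08 ± 0.23 (SE, adjusted p = 0.0035) in 4T1, -1.0 ± 0.23 (SE, adjusted p = 0.00545) in 4T07 and -0.72 ± 0.23 (SE, adjusted p = 0.0336) in 168FARN, with 10 of 10 probesets negative in each comparison. The 168FARN call was lost in a fit of its 2 lines alone and without any 1 array of 67NR or array 1 of 168FARN (adjusted p up to 0.128), and the others held in all 20 settings. Foxm1, the factor that transcribes mitotic genes, measured 9.19, 8.92 and 8.86 in 4T1 tumours and 8.97, 9.30 and 9.34 in 4T07 tumours. Foxm1 stood at 9.23, 9.57 and 10.24 in 168FARN tumours and 9.67, 10.11 and 9.90 in 67NR tumours. Its 4T1 arrays lay below all 67NR arrays, at -0.90 ± 0.23 (SE, adjusted p = 0.0119) by limma, a call lost without array 2 of 67NR (adjusted p = 0.0554), and the 168FARN arrays reached from below the 67NR range to above it. The 4T07 change, -0.69 (adjusted p = 0.0443), was lost in 9 of 20 settings, among them without any 1 array of 4T07 or 4T1. Cdc25c, the phosphatase that activates CDK1, measured 7.38, 7.0 and 7.47 in 4T1 tumours and 7.66, 7.68 and 7.88 in 4T07 tumours. Cdc25c stood at 7.83, 8.41 and 8.77 in 168FARN tumours and 7.65, 7.81 and 7.87 in 67NR tumours. It was lowest in 4T1 and highest in 168FARN, with a limma change of -1.05 ± 0.21 (SE, adjusted p = 0.00214) between them, which was -0.55 (adjusted p = 0.135) where array 1 was the only 168FARN array, and at 0.55 (adjusted p = 0.0772) it was not called for 168FARN against 67NR.

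The remaining genes of mitotic entry fell in 4T1 and 4T07. Ccna2 (cyclin A2) was lower than in 67NR by -0.88 ± 0.22 (SE, adjusted p = 0.0102) in 4T1 and -0.67 ± 0.22 (SE, adjusted p = 0.0379) in 4T07 by limma. Ccnb2 (cyclin B2) was lower by -0.59 ± 0.17 (SE, adjusted p = 0.027) and -0.57 ± 0.17 (SE, adjusted p = 0.0302) in the same lines, and Plk1, a mitotic kinase, by -0.76 ± 0.20 (SE, adjusted p = 0.0143) and -0.66 ± 0.20 (SE, adjusted p = 0.0273), and by -0.62 ± 0.20 (SE, adjusted p = 0.036) in 168FARN. Of these 7 calls, that of Ccna2 in 4T1 held in all 20 settings, and the other 6 were each lost in 3 to 8 settings, in each case without array 2 of 67NR among them, at adjusted p-values up to 0.143.

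Of 9 genes of the spindle and its checkpoint, 7 had their lowest mean in 4T1. Kif23, a kinesin of the central spindle, measured 9.03, 8.84 and 8.92 in 4T1 tumours and 9.09, 9.07 and 9.41 in 4T07 tumours. Kif23 stood at 8.46, 8.38 and 9.13 in 168FARN tumours and 9.74, 9.82 and 9.74 in 67NR tumours. It was lowest in 168FARN, on arrays 1 and 2, and highest on the 67NR arrays. The limma change against 67NR was -0.84 ± 0.19 (SE, adjusted p = 0.00576) in 4T1, -0.58 ± 0.19 (SE, adjusted p = 0.0422) in 4T07 and -1.11 ± 0.19 (SE, adjusted p = 0.000891) in 168FARN, a 0.464-fold level, with 27 of 27 probesets negative in 4T1 and 168FARN. Ttk (Mps1), a checkpoint kinase, measured 7.83, 7.47 and 7.58 in 4T1 tumours and 7.93, 8.14 and 8.30 in 4T07 tumours. Ttk stood at 7.60, 8.21 and 8.23 in 168FARN tumours and 8.64, 8.58 and 8.63 in 67NR tumours. All 67NR arrays lay above all others, and Ttk was lower by -0.99 ± 0.18 (SE, adjusted p = 0.00148) in 4T1 and -0.60 ± 0.18 (SE, adjusted p = 0.028) in 168FARN, and stood at -0.49 ± 0.18 (SE, adjusted p = 0.0691) in 4T07, by limma. The 168FARN call was lost without array 1 of 168FARN (adjusted p = 0.111), without any 1 array of 67NR and in a fit of its 2 lines alone, and the 4T07 call of Kif23 without any 1 array of 67NR or 4T1 or without array 1 or 2 of 4T07 (adjusted p up to 0.12).

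Mki67, the gene of the Ki-67 antigen that pathologists stain for cycling cells, measured 9.60, 9.47 and 9.35 in 4T1 tumours and 9.56, 9.45 and 9.91 in 4T07 tumours. Mki67 stood at 9.37, 9.64 and 10.40 in 168FARN tumours and 10.53, 10.40 and 10.27 in 67NR tumours. The 4T1 and 4T07 arrays all lay under the 67NR arrays, while array 3 of 168FARN fell within the 67NR range. By limma Mki67 was lower by -0.93 ± 0.23 (SE, adjusted p = 0.00975) in 4T1, which held in all 20 settings, and by -0.76 ± 0.23 (SE, adjusted p = 0.0273) in 4T07, lost without array 1 or 2 of 67NR or of 4T07 (adjusted p up to 0.0914). It stood at -0.60 ± 0.23 (SE, adjusted p = 0.0733) in 168FARN, not called. Aurkb, the kinase of the chromosomal passenger complex, was lower in all 3 lines, by -0.88 ± 0.19 (SE, adjusted p = 0.00408) in 4T1, -0.89 ± 0.19 (SE, adjusted p = 0.00371) in 4T07 and -0.82 ± 0.19 (SE, adjusted p = 0.00635) in 168FARN, and these calls held in all 20 settings. Its partner Birc5 (survivin) was lower by -0.85 (adjusted p = 0.0134) in 4T1 and -0.75 (adjusted p = 0.0249) in 4T07, both lost without array 2 of 67NR, at 0.0635 and 0.105, and the second also without array 3 of 67NR or array 1 or 2 of 4T07. Kif20a and Mad2l1 were called in 4T1 and not in 4T07, at -0.80 (adjusted p = 0.00378) and -0.90 (adjusted p = 0.00682) in 4T1 and -0.48 (adjusted p = 0.0557) and -0.52 (adjusted p = 0.092) in 4T07, though neither was called between these lines. Of the other mitotic genes, Cdc20, Bub1b, Nusap1 and Tpx2 were called lower in 4T1, between -0.56 (adjusted p = 0.0356) for Bub1b and -0.74 (adjusted p = 0.0324) for Nusap1, and Cdc20 also in 4T07 at -0.70 (adjusted p = 0.02). These 5 calls were each lost without array 2 of 67NR and in 3 to 5 of the 20 settings. Aurka, Bub1, Kif11 and Top2a were called in 0 of the 6 comparisons, with changes against 67NR between -0.49 (Kif11 in 4T1) and 0.07 (Bub1 in 4T07).

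Set against 67NR, 26 of 42 genes were lower in 4T1 tumours and 0 higher, where 13.0% of all genes were lower and 9.38% higher. G2/M genes made up 16 of the 26 and G1/S genes 10. The median change was -0.76 over the G2/M genes, all 21 of them negative, -0.45 over the G1/S genes and -0.04 over all genes. Cdk1 alone differed at least 2-fold among the called (9.18% of all genes), so the shift is broad and mostly under 2-fold. All 4T1 arrays lay under all 67NR arrays for 38 of the 42, as they did for 25.4% of all genes. Without array 2 of 67NR 13 genes were called, without array 2 of 4T1 17 and without array 3 of 4T1 15.

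In 4T07 tumours 24 of 42 genes were lower than in 67NR and 0 higher, where 12.7% of all genes were lower and 11.0% higher. Here G1/S genes made up 14 of the 24 and G2/M genes 10, with median changes of -0.59 and -0.57, against -0.04 over all genes. Cdk1 alone passed 2-fold (9.53% of all genes), and all 4T07 arrays lay under all 67NR arrays for 31 of 42 (20.5% of all genes). The count was 9 without array 1 of 4T07 or without array 2 of 67NR, 12 without array 3 of 67NR and 14 without array 2 of 4T07. Whether the share of G1/S and G2/M calls differs between 4T1 and 4T07 was not tested, and the 2 comparisons share the 67NR arrays.

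In 168FARN tumours 10 of 42 genes were lower than in 67NR (11.2% of all genes) and 2, Ccnd2 and Ccne1, were higher (13.5% of all genes). The lower ones were 5 G1/S genes (Ccnd1, Cdk6, E2f1, Mcm4 and Mcm6) and 5 G2/M genes (Cdk1, Plk1, Aurkb, Ttk and Kif23). Ccnd2 and Kif23 passed 2-fold (8.24% of all genes), and the median change was -0.39, against 0.04 over all genes. The count of 12 in either direction was 20 without array 3 of 168FARN, 18 of them lower, 22 after quantile normalization and 19 with a trended, robust fit. The 10 lower genes became 5 without array 1 of 168FARN, and 6 without array 2 or without array 3 of 67NR or in a fit of the 2 lines alone. Over the G2/M genes this line varied most between its arrays: the median SD was 0.10 in 4T1, 0.21 in 4T07, 0.41 in 168FARN and 0.11 in 67NR. Over the G1/S genes it was 0.08, 0.26, 0.24 and 0.13 in the same order, and over all genes 0.16, 0.25, 0.22 and 0.17, so that in both 4T07 varied most.

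**Figure D4:**
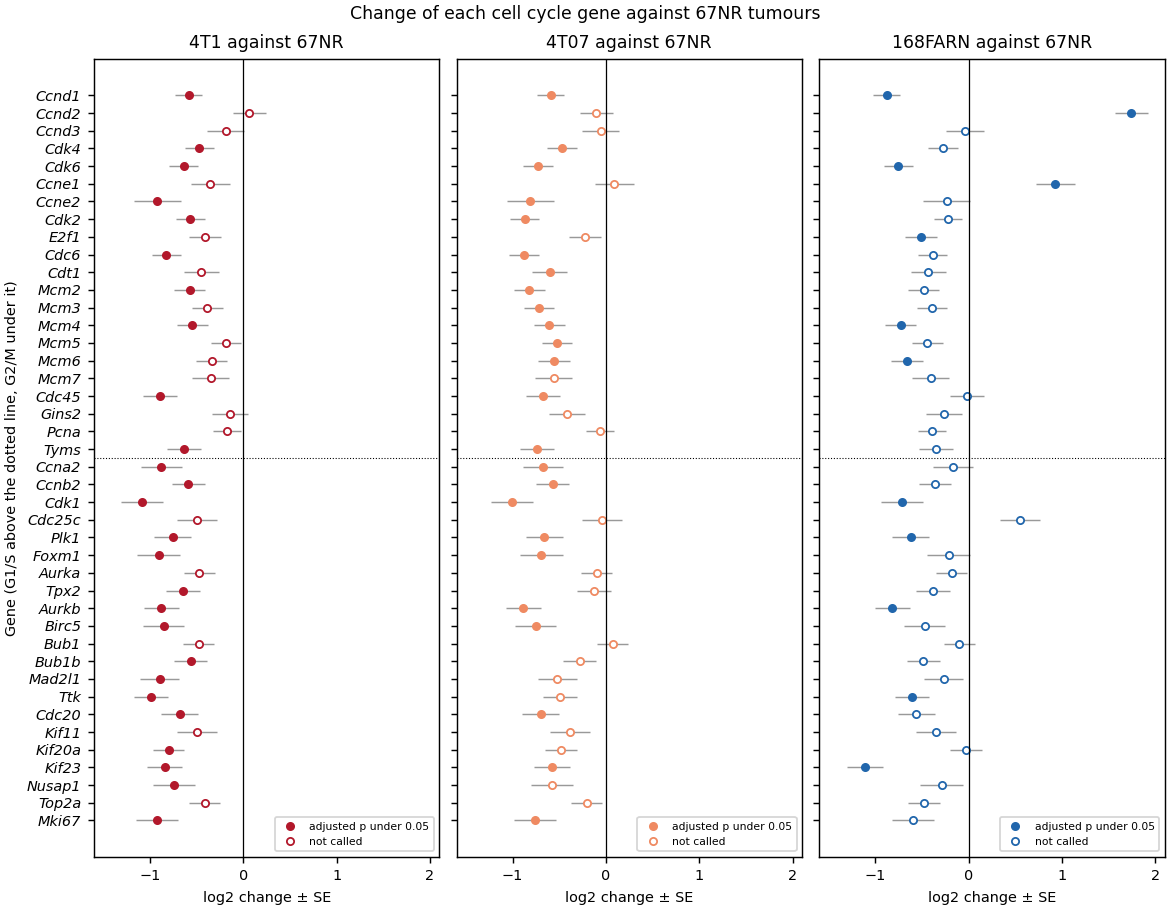
Change of each gene against 67NR (horizontal axis, log2 change ± SE from limma) in 4T1, 4T07 and 168FARN tumours, all against the same 3 arrays of 67NR. Filled points have an adjusted p under 0.05 (26, 24 and 12 genes). G1/S genes stand above the dotted line and G2/M genes under it, and all points lie left of 0 except Ccnd2 in 4T1, Bub1 and Ccne1 in 4T07, and Ccnd2, Ccne1 and Cdc25c in 168FARN.

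The spread in 168FARN followed the array across genes. Array 1 of 168FARN was the lowest of its line for 20 of 21 G2/M genes and 16 of 21 G1/S genes (41.3% of all genes), and array 3 was the highest for 18 and 13 of them (36.6% of all genes). The same arrays order the skeletal muscle markers, at 5.46 on array 1 and 8.68 on array 3, of which 4 of 12 were called higher in 168FARN than in 67NR (13.5% of all genes) and 0 lower (11.2%). Their part in the cell cycle values was not tested. With array 1, the one near the muscle level of the other lines, as the only 168FARN array, 12 cell cycle genes were lower than in 67NR and 2 higher, with a median of -0.63, in a test whose spread comes from the other lines alone. In 4T07 tumours array 1 was lowest for 34 of 42 genes (59.6% of all genes) and array 3 highest for 27 (45.4%).

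**Figure D5:**
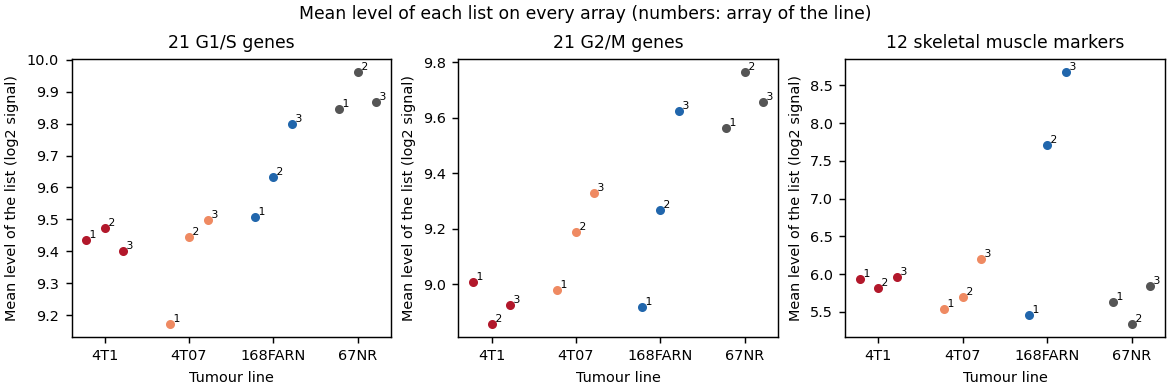
Mean level (vertical axis, log2 signal) of the 21 G1/S genes, the 21 G2/M genes and 12 skeletal muscle markers on each array, by line (horizontal axis), with the array's number beside its point. The 67NR arrays are above all 4T1 and 4T07 arrays for both phases, and in 168FARN both phases and the muscle markers are lowest on array 1 and highest on array 3.

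Markers of other cells also differed between the lines. Endothelial markers were highest in 67NR tumours, like the cell cycle genes: 8 markers averaged 8.02 to 8.54 on 4T1, 8.08 to 8.63 on 4T07, 7.83 to 8.08 on 168FARN and 8.58 to 8.98 on 67NR arrays. Of these 8, 2, 4 and 6 were called lower than in 67NR in 4T1, 4T07 and 168FARN (13.0%, 12.7% and 11.2% of all genes). Macrophage and monocyte markers had averages of 9.61 to 9.72, 9.09 to 9.44, 9.28 to 9.33 and 9.92 to 10.00 in the same order of lines, with 3, 4 and 5 of 8 called lower, beside the same shares of all genes. T and NK cell markers averaged 6.06 to 6.53, 6.45 to 7.43, 5.78 to 6.17 and 6.59 to 7.06. Of these 10, 3 were called lower in 4T1, 2 in 4T07 and 5 in 168FARN (13.0%, 12.7% and 11.2% of all genes). In 4T07, 2 were called higher (11.0% of all genes), and both counts of this line are near the shares of all genes. Neutrophil, fibroblast, epithelial and B cell markers had their lowest mean in 67NR. Neutrophil markers averaged 7.75 to 8.05 on 4T1, 8.40 to 8.71 on 4T07, 5.95 to 6.87 on 168FARN and 5.56 to 6.63 on 67NR arrays. Of these 10, 7 were called higher in 4T1, 9 in 4T07 and 1 in 168FARN (9.38%, 11.0% and 13.5% of all genes). Fibroblast markers averaged 9.58 to 9.86, 9.49 to 10.08, 10.27 to 10.56 and 8.60 to 9.12, with 5, 7 and 6 of 9 called higher. For the epithelial markers, 7 of 8 were called higher in 4T1, 7 in 4T07 and 2 in 168FARN, and both lists stand beside the same shares of all genes. The 5 B cell markers averaged 5.31 to 7.67, 6.98 to 8.56, 5.83 to 6.81 and 5.70 to 5.95, and adipocyte markers 6.26 to 6.42, 6.43 to 7.17, 6.61 to 7.13 and 6.46 to 7.44, so that in both the 67NR range overlapped with that of at least 1 other line. Against 67NR, 1 of 5 B cell markers was called higher in 4T07 (11.0% of all genes). Of 5 adipocyte markers, 1 was called lower in 4T1 (13.0% of all genes). The part of any of these cells in the cell cycle values was not tested.

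Between the lines other than 67NR, few cell cycle genes differed. In 4T1 tumours 9 of 42 were lower than in 168FARN (19.3% of all genes) and 0 higher (11.9%): Ccnd2, Ccne1, Cdc45 and Cdc6 of the G1/S genes, and Kif20a, Ccna2, Cdc25c, Foxm1 and Mad2l1 of the G2/M genes. Ccnd2, Ccne1 and Cdc25c passed 2-fold (11.8% of all genes). The share of 9 in 42 is close to that of all genes. Kif20a was at -0.77 ± 0.17 (SE, adjusted p = 0.0035) by limma. With array 1 as the only 168FARN array, Ccnd2 and Ccne1 made up the 2 genes still called and the median change of the 42 turned to 0.07, where it was -0.21 with all arrays. The count was 5 without array 2 or array 3 of 4T1, and over the 20 settings Cdc6 lost its call in 12, Mad2l1 in 7, Foxm1 in 6 and Ccna2 in 5.

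In 4T07 tumours 5 of 42 genes, all of G1/S, were lower than in 168FARN (16.8% of all genes) and 0 higher (11.4%): Ccnd2, which alone passed 2-fold (10.5% of all genes), Ccne1, Cdk2, Cdc45 and Cdc6. This is under the share of all genes, and the median change was -0.16. The count was 3 without array 1 of 4T07, 11 without array 1 of 168FARN and 9 without array 3 of 4T07, and between 8 and 11 in 5 other settings. With array 1 as the only 168FARN array the median turned to 0.15, with 2 genes lower and 1 higher.

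Between 4T1 and 4T07, 0 of 42 genes were called by limma, where 1.82% of all genes were lower in 4T1, 0.552% were higher and 1.52% were called and at least 2-fold. At an unadjusted p under 0.05 there were 4 of 42, where 13.2% of all genes passed, and all 4 were G2/M genes lower in 4T1: Bub1 at -0.55 ± 0.16 (SE, adjusted p = 0.125), Tpx2, which targets Aurora A to the spindle, at -0.52 (adjusted p = 0.21), Ttk at -0.50 (adjusted p = 0.234) and Aurka at -0.37 (adjusted p = 0.354). Without a call, 19 of 21 G2/M genes had a negative difference, beside 7521 negative and 7504 positive of all 15025 genes. A positive difference was found in 15 of 21 G1/S genes, including 6 of 6 MCM2-7 genes, with a median of 0.23. Of the 42 genes 25 were negative, and 32 without array 1 of 4T07. The G1/S mean was 9.17 on that array, 9.45 and 9.50 on the other 4T07 arrays and 9.40 to 9.47 on the 4T1 arrays. Whether the signs differ by phase was not tested. A missed threshold does not show that the lines are alike.

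Single probesets mostly followed their genes. The exon-level test compared each of 626 probesets in 41 of the genes with the other probesets of its gene, and 9 in 7 genes (Ccna2, Ccnd2, Cdc25c, Cdc45, Cdc6, Mcm4 and Mcm6) departed by at least 1 on the log2 scale in some comparison, where 2.24% of all tested probesets did. The departure that also passed a splicing index was probeset 5577613 of Ccnd2. It passed narrowly by limma, for 168FARN against 67NR (adjusted p = 0.0464) and 4T07 against 168FARN (adjusted p = 0.0497), and not for 4T1 against 168FARN. This probeset measured 7.66 ± 0.25 in 4T1, 7.66 ± 0.51 in 4T07, 8.07 ± 0.27 in 168FARN and 7.79 ± 0.36 in 67NR tumours (SD, n = 3), so it did not share the 3.35-fold difference of its gene. Relative to the other Ccnd2 probesets its change was -1.52 for 168FARN against 67NR (adjusted p = 1.31e-06, limma diffSplice). Which exon it covers, and whether the probeset responds to the level of its transcript, was not analysed here.

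Inhibitors of the cyclin-dependent kinases had changes of both signs. Of 6 measured, 2 were called lower than in 67NR in 4T1, 2 in 4T07 and 1 in 168FARN (13.0%, 12.7% and 11.2% of all genes), and 0 higher. Of the 6 changes, 4, 3 and 4 were positive in the same lines. Cdkn1a (p21), a target of p53, averaged 8.76 ± 0.35 in 4T1 tumours, 8.72 ± 0.14 in 4T07 tumours, 10.40 ± 0.54 in 168FARN tumours and 10.81 ± 0.08 in 67NR tumours. It was lower than in 67NR by -2.06 ± 0.24 (SE, adjusted p = 3.82e-05) in 4T1 and -2.09 ± 0.24 (SE, adjusted p = 3.38e-05) in 4T07 by limma, not called in 168FARN at -0.41 (adjusted p = 0.25). Cdkn2a, the locus of p16 and p19Arf, averaged 6.63 ± 0.23 in 4T1 tumours, 6.39 ± 0.35 in 4T07 tumours, 6.57 ± 0.23 in 168FARN tumours and 8.26 ± 0.43 in 67NR tumours. It was lower in all 3 lines, by -1.63 ± 0.24 (SE, adjusted p = 0.000219) in 4T1, -1.87 ± 0.24 (SE, adjusted p = 6.9e-05) in 4T07 and -1.69 ± 0.24 (SE, adjusted p = 0.000195) in 168FARN. Cdkn2c (p18) and Cdkn1b (p27), chosen after their values were seen, stood the other way without a call. Cdkn2c was at 0.54 (adjusted p = 0.091) in 4T1, 0.38 (adjusted p = 0.23) in 4T07 and 0.50 (adjusted p = 0.106) in 168FARN. Cdkn1b was at 0.40 (adjusted p = 0.18), 0.42 (adjusted p = 0.154) and 0.41 (adjusted p = 0.15) by limma in the same order. For both genes all 4T1 and 4T07 arrays lay above all 67NR arrays, as they did for 18.7% (4T1) and 16.4% (4T07) of all genes.

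Genes of the same phases outside the list of 42 were also called lower in 4T1 and 4T07. Of 24 other G1/S genes, 16 were lower than in 67NR in 4T1, 14 in 4T07 and 6 in 168FARN (13.0%, 12.7% and 11.2% of all genes), and 0 were higher. Their mean was highest in 67NR for 16 of 24 and in 168FARN for 7, among them Rfc4. Prim1, the primase subunit, averaged 8.92 ± 0.07 in 4T1 tumours, 8.73 ± 0.29 in 4T07 tumours, 9.67 ± 0.58 in 168FARN tumours and 10.43 ± 0.15 in 67NR tumours, with limma changes of -1.5 ± 0.24 (SE, adjusted p = 0.000526) in 4T1, -1.70 ± 0.24 (SE, adjusted p = 0.000194) in 4T07 and -0.76 ± 0.24 (SE, adjusted p = 0.0352) in 168FARN. Rfc4, a subunit of the clamp loader, was lower in 4T1 and 4T07 at -1.05 (adjusted p = 0.00274) and -0.95 (adjusted p = 0.0053), and stood at 0.42 (adjusted p = 0.18) in 168FARN. Of 23 other G2/M genes, 17 were lower in 4T1, 16 in 4T07 and 9 in 168FARN, beside the same shares of all genes, and 0 were higher. Racgap1, the partner of Kif23 in the central spindle, was lower by -1.64 ± 0.19 (SE, adjusted p = 3.08e-05), -1.29 ± 0.19 (SE, adjusted p = 0.000228) and -1.08 ± 0.19 (SE, adjusted p = 0.00103) in the same lines by limma, and Kif4, a chromosome-bound kinesin, by -1.53 ± 0.17 (SE, adjusted p = 2.8e-05), -1.21 ± 0.17 (SE, adjusted p = 0.000204) and -1.41 ± 0.17 (SE, adjusted p = 7.5e-05).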

How the data were processed

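Gene expression was measured on 12 Affymetrix mouse exon arrays of primary tumours, 3 for each of 4 lines, grouped by the sample titles. The authors deposited 1 log2 value per probeset and array; that the scale is log2 was read from the values, and how they were summarized and normalized was not given in the sources used here. Array medians lay between 7.21 and 7.57, and no further normalization was applied. All 12 columns entered. Probesets were paired with genes through the array's annotation, with symbols updated through RefSeq genes of GRCm38.p6: 207232 probesets carried 1 symbol, and 3882 with several and 16976 with none were left out.

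Gene levels were medians over probesets, for genes with at least 3. All 12 arrays entered 1 limma fit (lmFit and eBayes, limma 3.58.1 in R 4.3.3, tables read with data.table, version 1.17.8) with a mean per line and no covariate, an F-test over the lines and 6 pairwise contrasts, with p-values adjusted over 15025 genes and called under 0.05. Single probesets were tested with diffSplice, over 109801 probesets whose mean passed the 25th percentile, in genes past the 50th, and called at a relative log2 change of at least 1. The fits were tested on simulated data. Alternatives were the mean of probesets, quantile normalization, filters on dim probesets and genes, a trended robust fit, the replicate number as a block, each pair of lines alone, array 1 as the only 168FARN array, and each array left out.

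The replicate numbers were not treated as pairs: of 18 pairs of arrays with 1 number, 3 correlated above 0.1 in their deviations from the line means (r from -0.09 to 0.19). The median r was 0.013, and -0.009 for pairs with different numbers. With 3 arrays per line, such weak correlations cannot show that arrays with 1 number have nothing in common. Values on every array are given for the 6 called genes of each phase with the largest range between line means and for the D-type and E-type cyclins, the other genes by means and counts. The members and all lists were chosen with earlier results of these data known. Promoters were RefSeq windows of 300 bases, found for 31 of the 44 genes. For arrays there is no read depth, and their number limits the precision.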

Additional observations from a re-analysis of the deposited data

How the results depend on the processing

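None of the 76 called member changes reversed in any of 20 other settings, 31 stayed past the threshold in all 20, 45 lost their call in at least 1, and 51 uncalled changes passed it in at least 1. Leaving out array 2 of 67NR took 33 calls away. In the other settings calls were counted over the cell cycle genes alone. How far the calls over all genes changed with them is thus not shown. The count for 168FARN against 67NR, 12 as reported, was 22 after quantile normalization and 19 with a trended robust fit. That for 4T07 against 168FARN, 5 as reported, was 11 with the mean of probesets, 8 after quantile normalization, 8 without dim genes, 9 with the trended robust fit, 8 with the replicate number as a block, and 3 with array 1 as the only 168FARN array, under which 4T1 against 168FARN fell to 2. The block left the other counts within 1.5 times those reported, such as 26 for 4T07 against 67NR. Leaving out 1 array at a time gave 16 to 32 genes called among the 4 lines, 13 to 29 for 4T1 against 67NR, 9 to 27 for 4T07 against 67NR, 8 to 20 for 168FARN against 67NR, 5 to 13 for 4T1 against 168FARN, 3 to 11 for 4T07 against 168FARN and 0 for 4T1 against 4T07. Of the 9 member probesets called at the exon level, the splicing index called 1 and a stricter filter, above the 50th percentile of probesets, left 5. The cause of these shifts was not tested beyond the fewer arrays or probesets that a setting uses. All line means of the genes lay above 5.08, though single called probesets came near it, such as Mcm6 probeset 4400766 at 5.21 ± 1.10 (SD) in 4T1. How far background limits the lower values was not tested.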

Other observations

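The regulators that act through the promoters of these genes were called about as often as all genes. The F-test called 6 of 14 pocket protein, E2F and DREAM genes (42.9%), against 42.0% of all genes. Of the 14, 3 were lower than in 67NR in 4T1, 1 in 4T07 and 4 in 168FARN (13.0%, 12.7% and 11.2% of all genes), and 1 was higher in 4T1 and 1 in 168FARN (9.38% and 13.5%). E2f7, a repressing E2F factor that is itself transcribed in S phase, averaged 7.66 ± 0.19 in 4T1 tumours, 7.47 ± 0.08 in 4T07 tumours, 7.93 ± 0.27 in 168FARN tumours and 8.89 ± 0.25 in 67NR tumours, and was lower than in 67NR by -1.22 ± 0.18 (SE, adjusted p = 0.000217) in 4T1, -1.42 ± 0.18 (SE, adjusted p = 6.43e-05) in 4T07 and -0.96 ± 0.18 (SE, adjusted p = 0.0015) in 168FARN by limma. Its relative E2f8 was called in 168FARN at -1.25 (adjusted p = 0.00152), and stood at -0.63 (adjusted p = 0.0664) in 4T1 and -0.67 (adjusted p = 0.051) in 4T07. E2f6, a repressor, was higher in 168FARN at 0.82 (adjusted p = 0.0013), and E2f4 was higher in 4T1 at 0.57 (adjusted p = 0.0401). Of the pocket proteins, Rb1 was lower in 4T1 at -0.80 (adjusted p = 0.0109), Rbl1 in 168FARN at -0.51 (adjusted p = 0.0276), and Rbl2 was called in 0 lines.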
